A study of Oryza sativa with 15 samples.

Results

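Rice shoots taken after 30 min at 40 °C were compared with shoots kept at 30 °C, to ask which transcripts had changed within the first minutes of heat. The comparison uses 6 of the 15 libraries of a study of heat and drought: 3 of heat-treated plants and 3 of the wet control. All 6 came from whole shoots of Oryza sativa cultivar Nipponbare, a japonica variety with no transgene or mutation named in the labels. Seeds were germinated for 3 days, and 7 plants per pot then grew in a chamber for 10 days (30 °C by day for 12 h, 27 °C by night, 90% humidity) in soil that held 3 g of water per g. Both groups shared this wet soil and were collected 6 h after dawn, and they differed in the 30 min in a 40 °C chamber. Heat-treated pots were moved to another chamber, and no moved pots at 30 °C are among the 15 samples, so the move and the temperature cannot be told apart. A group with 60 min at 40 °C, also of 3 libraries, shows what the same genes did later. Nothing in the labels ties the 3 samples of a group to separate pots; the spread that the p-values rest on is that between these samples and may be partly technical.

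Heat unfolds proteins, and plant cells answer with heat shock factors, transcription factors that bind heat shock elements and switch on genes for chaperones. Small heat shock proteins hold unfolded proteins in a soluble state without using ATP, HSP70 and HSP90 refold them, and ClpB/HSP101 disaggregases of the HSP100 family pull aggregates apart. Class A heat shock factors carry an activation domain, class B factors lack it and often repress, and the endoplasmic reticulum has its own unfolded protein response, run by IRE1 and membrane-tethered bZIP factors.

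Total counts were 67857233 to 77969214 in the heat libraries and 60453774 to 68226451 in the wet control. Leaf transcripts were abundant: CAB1R, CAB2R, RBCS-C and RCABP89, of light harvesting and the Rubisco small subunit, each had at least 529802 counts in every 1 of the 6 libraries. Of the other markers, the root silicon transporter LSI2, the seed amylase RAMY1A and the meristem factor OSH1 had 0 counts in these libraries, the seed glutelin GLUA1 had at most 7 and the meristem factor OSH15 at most 6. The root markers LSI1 and SHR1 had 927 to 1406 and 4 to 48 counts, and LOG, a cytokinin-activating enzyme fixed as a meristem marker, had 6985 to 31704. Replicates spread more in the wet control than after heat, with a median SD of 0.249 against 0.181 on the log2 scale.

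After 30 min of heat, the expression of 38.9% of genes had changed. Of 20462 genes tested, 3946 were higher (19.3%) and 4007 lower (19.6%) at an adjusted p under 0.05 (edgeR quasi-likelihood test, Benjamini-Hochberg adjustment over all genes, as for every adjusted p below). More than 16-fold changes were mostly rises under the scaling used, with 335 genes higher and 130 lower. These counts rest on TMM scaling, which sets the bulk of genes as the reference, and the heat libraries had TMM factors of 0.622 to 0.706 against 1.059 to 1.318 in the wet control. Scaled by total counts alone, the median over all genes moved by -0.88, from -0.14 to -1.02, and 1480 genes were higher (7.23%) and 12475 lower (61%), so that 10.6% of the called genes were higher in place of 49.6%. With total counts, falls past 16-fold outnumbered rises past 16-fold over all genes tested, called or not. The log2 bins from -4.25 to -4 and from 4 to 4.25 then held 111 and 24 genes, against 29 and 40 with TMM. With upper quartile factors, 2897 were higher and 5865 lower, so that 33.1% of the called genes were higher. Under all 4 scalings tried, 1480 genes were higher (7.23%) and 3981 lower (19.5%), a set chosen after seeing the data. Values below are on the TMM scale unless named otherwise, and read-based shares cannot show how much RNA a cell held in all. In whole shoots, fewer cells of a type and less RNA per cell cannot be told apart.

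**Figure D1:**
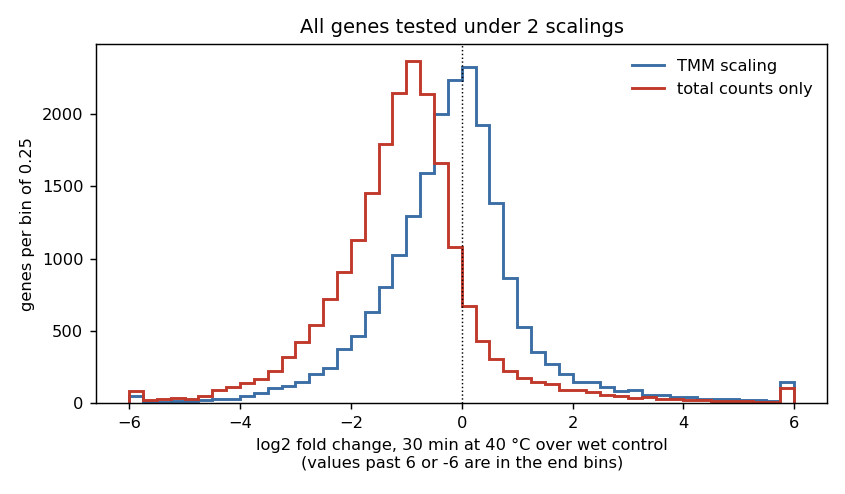
Number of genes (y) by log2 fold change of 30 min at 40 °C over the wet control (x, bins of 0.25) for the 20462 genes tested, with TMM scaling (blue) or total counts only (red). The whole distribution sits 0.88 lower with total counts, so the sign of small changes depends on the scaling. The tail of large rises stays above 0 in both. Genes below -4 outnumber those above 4 with total counts, the reverse of TMM scaling.

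Chaperone messages went from a trace to a large share of the sequenced RNA. The 27 named genes for HSP100, small heat shock proteins, HSP90 and HSP90 co-chaperones held 0.109%, 0.0861% and 0.109% of all counts in wet control replicates 1, 2 and 3, and 12.1%, 11.9% and 11.1% after 30 min. The means were 0.101 ± 0.0131% and 11.7 ± 0.521% (SD, n = 3), a 115-fold difference that needs no scaling factor and in which the groups stand far apart (exact permutation test, two-sided, p = 0.1, the smallest 3 against 3 libraries can give). At 60 min the share was 5.59 ± 0.146%. Small heat shock proteins made up most of it, with 7.07 ± 0.413% of counts after 30 min against 0.0319 ± 0.00582%, followed by HSP100 (2.85 ± 0.224% against 0.0192 ± 0.00315%) and HSP90 with its co-chaperones (1.76 ± 0.0595% against 0.05 ± 0.00912%). With all 38 listed chaperone loci, including HSP70 loci whose names found no match in the reference, the share was 17.3 ± 0.798% against 0.312 ± 0.0372%. By comparison, the 20 highest genes of each library held 19.246 to 20.466% of counts after heat and 16.921 to 22.439% in the wet control, ranges that overlap (exact permutation p = 0.4). The 50 highest held 32.9 to 34% after heat and 24.8 to 32.5% in the wet control, with no overlap (exact permutation p = 0.1).

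**Figure D2:**
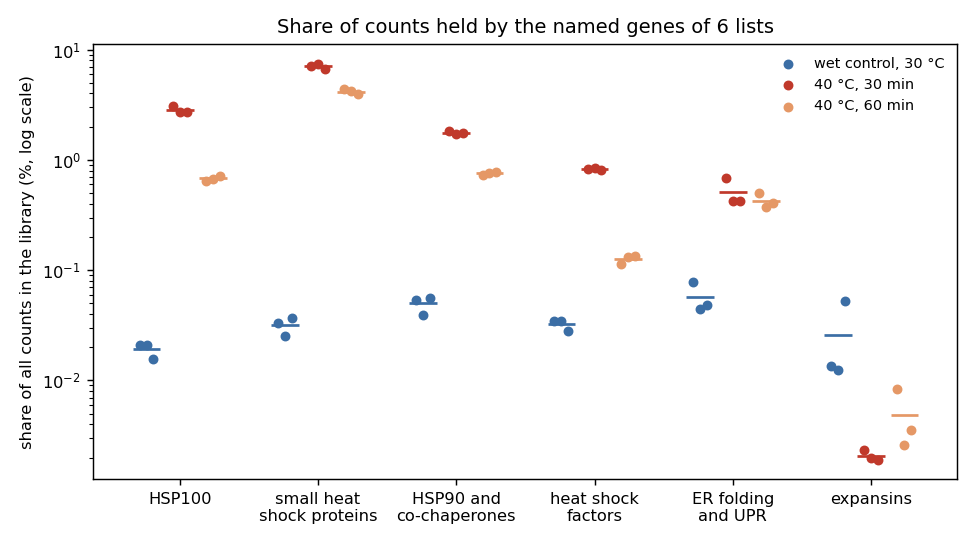
Share of all counts in a library (y, %, log scale) held by the named members of 6 gene lists (x); points are the 3 libraries of a group and bars their mean. After 30 min, small heat shock proteins reach 6.62 to 7.43% from 0.0255 to 0.0369% in the wet control, while expansins lie below every wet control library.

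All 3 named disaggregase genes rose, under every scaling (7.23% of all genes) and with any library left out. CLPB1 (LOC_Os05g44340), the cytosolic HSP101, had 1.42, 1.77 and 4.71 CPM in the wet control and 19930, 20130 and 19700 CPM after 30 min (counts per 1000000 after TMM scaling, replicates 1 to 3 in order here and below), a log2 fold change of 12.88 ± 0.61, adjusted p = 2.5e-09 (SE, edgeR). It was among the 4 genes that gained most CPM of all, its 3 heat libraries lay within a narrow band, and without wet control replicate 3 the value was 13.59. CLPB3 had 11.5, 14.8 and 13.6 CPM in the wet control and 10510, 10210 and 10560 CPM after 30 min (9.62 ± 0.25, adjusted p = 2.7e-11). CLPB2 had 147, 181 and 108 CPM in the wet control and 13600, 13390 and 12730 CPM after 30 min (6.51 ± 0.44, adjusted p = 7.7e-08). CLPB2 and CLPB3 are the organelle-targeted relatives of CLPB1, and CLPB2 had the highest level of the 3 in the wet control and the smallest fold change. By 60 min all 3 were lower again than at 30 min, beside 13.9% of all genes. CLPB1 had 1615, 1548 and 1775 CPM (60 over 30 min, -3.60 ± 0.41, adjusted p = 5.5e-05). CLPB3 then had 584, 637 and 744 CPM (-3.99 ± 0.19, adjusted p = 5.3e-08). CLPB2 had 3873, 3821 and 3842 CPM (-1.78 ± 0.35, adjusted p = 0.0031), and all 3 still exceeded the wet control.

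Of 20 named small heat shock protein genes 19 were tested, and 17 rose, 1 fell and 1 passed no threshold, against 19.3% of all genes that rose and 19.6% that fell. Their median log2 fold change was 11.22, beside -0.14 over all genes tested, and 15 of them rose more than 16-fold, with log2 fold changes of 7.51 to 14.26. HSP23.2 (LOC_Os04g36750) rose most of the named genes, with 0.0497, 0.083 and 1.4 CPM in the wet control and 9243, 11320 and 9576 CPM after 30 min (14.26 ± 1.27, adjusted p = 1.7e-06). HSP26.7 (LOC_Os03g14180), which works in the chloroplast, had 0.112, 0.111 and 3.07 CPM in the wet control and 10460, 11810 and 10730 CPM after 30 min (13.29 ± 1.39, adjusted p = 7.5e-06). HSP21.9 had 0.0249, 0 and 0.996 CPM in the wet control and 2708, 3213 and 2673 CPM after 30 min (13.04 ± 1.27, adjusted p = 3.8e-06). HSP16.6 had 0.0249, 0.0277 and 0.189 CPM in the wet control and 625, 562 and 433 CPM after 30 min (12.69 ± 0.80, adjusted p = 4.5e-08). In each case the wet control held traces, and all 3 heat libraries far more. Of the 15 genes that rose over 16-fold, 14 had their highest wet control level in replicate 3, beside 42.9% of all genes tested. In that library the 15 genes stood at 0.0139 to 0.513% of the level after heat. The size of these rises therefore depends on that library: without it the log2 fold change was 17.17 for HSP23.2, 16.55 for HSP26.7, 17.53 for HSP21.9 and 14.21 for HSP16.6, and all calls held. Leaving out replicate 2 of the wet control moved HSP23.2 to 13.67, HSP26.7 to 12.67 and HSP21.9 to 12.37. Genes HSP16.6, HSP17.9B, HSP16.9C, HSP16.9A and HSP16.9B stand next to each other by locus number, so reads may be shared between them and the name check cannot tell neighbours apart.

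The family was not uniform, as its members outside the 4 largest rises show (chosen after their values were seen). HSP17.9A had 6.78, 7.04 and 19.2 CPM in the wet control and 15460, 18010 and 17090 CPM after 30 min, the highest level after heat among the small heat shock proteins (10.58 ± 0.49, adjusted p = 1.9e-09; 11.24 without wet control replicate 3). HSP22.3 rose only to 16.1 ± 0.844 CPM from 5.42 ± 0.399 (SD, n = 3; 1.57 ± 0.18, adjusted p = 1.4e-05). HSP17.9B had 129, 104 and 94.4 CPM in the wet control and 257, 298 and 229.7 CPM after 30 min (1.26 ± 0.35, adjusted p = 0.013), a call lost with total counts (0.37, adjusted p = 0.39) and without wet control replicate 2 (adjusted p = 0.055). HSP18.8 went down in every library, with 73.7, 79.1 and 93.1 CPM in the wet control and 19.6, 24.2 and 20.4 CPM after 30 min (-1.94 ± 0.15, adjusted p = 2.6e-07), in all 4 scalings. HSP18.9 had 3.7, 4.1 and 6.42 CPM in the wet control and 3.5, 2.97 and 5.03 CPM after 30 min and passed no threshold (-0.31 ± 0.33, adjusted p = 0.49). The members also differed in their level at 60 min, though genes were not tested against each other. HSP26.7 stood at 9633, 8895 and 8269 CPM after 60 min (60 over 30 min, -0.30 ± 0.84, adjusted p = 0.83). HSP16.9A stood at 4522, 3878 and 3227 (-0.59 ± 0.87, adjusted p = 0.67). HSP17.8 went from 2917, 3176 and 2540 to 154, 119 and 107 CPM (-4.50 ± 0.70, adjusted p = 0.00061). Each SE rests on the spread in all groups of the fit, the wet control among them, and not on the heat libraries alone. HSP23.2, with 2802, 2319 and 2215 CPM after 60 min, also passed no threshold (-2.04 ± 0.77, adjusted p = 0.073). In all, 13 of the 19 were lower and 1 higher at 60 than at 30 min, beside 13.9% lower and 10.4% higher over all genes. With total counts 7 were lower and 1 higher, beside 3.32% and 49.2% of all genes. HSP18.8 was the higher one, with 52.9, 44.6 and 45.7 CPM (1.16 ± 0.14, adjusted p = 0.0001).

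All 4 named genes of HSP90 and its co-chaperones rose, in all 4 scalings (7.23% of all genes) and with any library left out. HSP81-1 (LOC_Os08g39140), a cytosolic HSP90, went from 189, 166 and 218 CPM to 20460, 22010 and 21910 (6.82 ± 0.19, adjusted p = 4.6e-11). HSP81-2 had 115, 112 and 143 CPM in the wet control and 3192, 2837 and 3123 CPM after 30 min (4.63 ± 0.22, adjusted p = 2.7e-09). Both were already well expressed in the wet control, so the rise in CPM was among the largest of all genes for HSP81-1 at a smaller fold than the small heat shock proteins. SGT1, which steadies client proteins with HSP90, had 94.4, 83 and 82.1 CPM in the wet control and 2100, 2492 and 2450 CPM after 30 min (4.76 ± 0.16, adjusted p = 1.2e-10). RAR1, its partner in immune receptor assembly, had 12.9, 12.9 and 16 CPM in the wet control and 34.1, 41.6 and 32.9 CPM after 30 min (1.38 ± 0.14, adjusted p = 4.6e-06). All 4 were lower at 60 than at 30 min (13.9% of all genes), with 5515, 5390 and 5401 CPM for HSP81-1 (-1.98 ± 0.15, adjusted p = 1.9e-06). RAR1 (-0.88 ± 0.14, adjusted p = 0.00063) passed no threshold there with total counts (3 of 4 lower, beside 3.32% of all genes).

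The heat shock factor genes rose as a broad group, with class A2 and class B2 members at the top. Of 21 named genes 20 were tested, and 14 were higher and 1 lower (all genes, 19.3% and 19.6%). In all 4 scalings 12 were higher and 1 lower (all genes, 7.23% and 19.5%). The median log2 fold change was 2.79. HSFA2A (LOC_Os03g53340), an activator of the class that sustains the response, had 0.249, 0.0277 and 1.43 CPM in the wet control and 5261, 6478 and 6042 CPM after 30 min (13.35 ± 1.27, adjusted p = 3.1e-06). Without wet control replicate 3 the value was 15.32, and without replicate 2 it was 12.70. HSFA2C had 10.7, 11.4 and 15.2 CPM in the wet control and 3196, 3107 and 2921 CPM after 30 min (7.95 ± 0.26, adjusted p = 1e-10). Of the class B factors, HSFB2B had 2.45, 1.52 and 3.22 CPM in the wet control and 449, 516 and 531 CPM after 30 min (7.70 ± 0.30, adjusted p = 4.7e-10). HSFB2A had 2.82, 3.17 and 3.69 CPM in the wet control and 322, 360 and 322 CPM after 30 min (6.70 ± 0.23, adjusted p = 1.5e-10). Activators and class B factors therefore rose side by side, and in none of these 4 genes did a heat library come near a wet control library. Further members were singled out after their values were seen: HSFA2D rose from 67.7, 121 and 56 to 1220, 1656 and 1469 CPM (4.15 ± 0.29, adjusted p = 1.1e-07). HSFB2C rose from 25.6, 28.6 and 20.7 to 755, 934 and 946 (5.14 ± 0.21, adjusted p = 6.9e-10). HSFC2B had 0.51, 0.124 and 0.323 CPM in the wet control and 16.2, 6.29 and 7.17 CPM after 30 min (4.94 ± 0.64, adjusted p = 5.1e-05). HSFC1A, of the same class, fell from 2.27, 3.52 and 1.79 to 0.36, 0.825 and 0.512 CPM (-2.16 ± 0.33, adjusted p = 0.0002). HSFA1 (LOC_Os03g63750), whose Arabidopsis relatives start the heat response, had 51.1, 59 and 49.5 CPM in the wet control and 40.5, 51.8 and 51.2 CPM after 30 min, with overlapping groups (-0.15 ± 0.14, adjusted p = 0.42), and was lower with total counts (-1.03, adjusted p = 1.5e-05). HSFB1 and HSFA5 were higher with TMM but not with total counts, where HSFA5 stood at -0.18. HSFB1 (1.46 ± 0.52, adjusted p = 0.04) also missed the threshold without any of 5 single libraries, with adjusted p of 0.052 to 0.14. It passed without wet control replicate 1 (2.32, adjusted p = 0.0025).

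**Figure D3:**
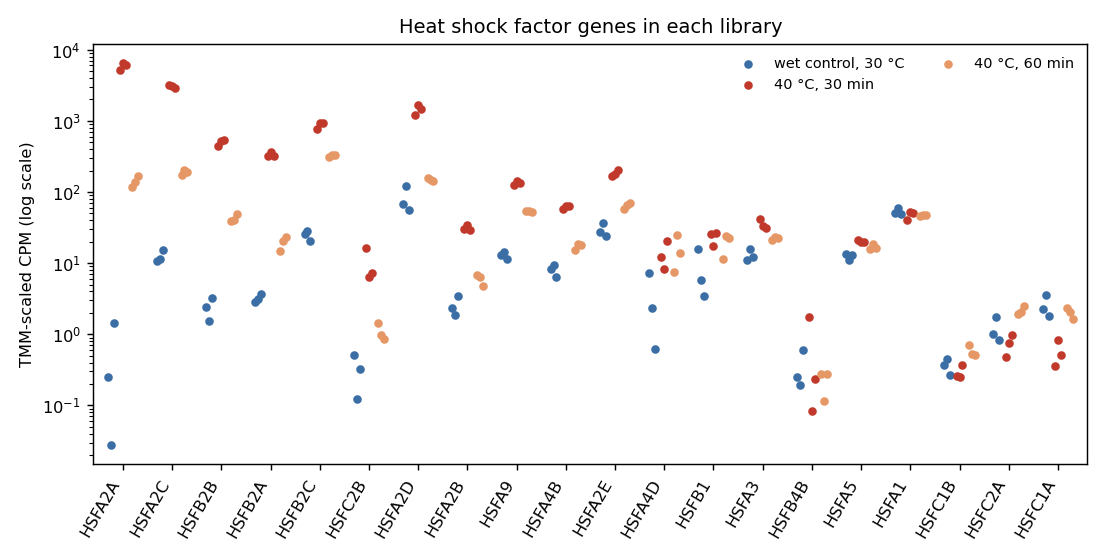
Level of the 20 heat shock factor genes tested (y, TMM-scaled CPM, log scale), ordered by log2 fold change (x); each point is a library of the wet control (blue), 30 min at 40 °C (red) or 60 min (orange). HSFA2A climbs from 0.0277 to 1.43 CPM to 5261 to 6478 and lies at 118 to 167 after 60 min, while HSFA1 keeps overlapping levels in the 3 groups.

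The heat shock factor messages were lower at 60 than at 30 min for 12 of the 20 genes, and higher for 2, beside 13.9% and 10.4% of all genes. HSFA2A had 118, 136 and 167 CPM after 60 min (-5.40 ± 0.92, adjusted p = 0.0012). HSFA2C was at 173, 202 and 192 CPM by then (-4.02 ± 0.21, adjusted p = 7.8e-08). HSFB2A was at 14.7, 20.6 and 23.18 CPM (-4.10 ± 0.20, adjusted p = 5.3e-08). Those that were higher at 60 min were HSFC1A, with 2.38, 2.09 and 1.63 CPM (1.84 ± 0.33, adjusted p = 0.0016), and HSFC2A, with 1.92, 2.06 and 2.48 CPM (1.56 ± 0.39, adjusted p = 0.013). With total counts, 11 were lower and 5 higher, beside 3.32% and 49.2% of all genes. The list held 0.829 ± 0.0173% of counts at 30 min, 0.126 ± 0.0112% at 60 min and 0.0325 ± 0.0039% in the wet control (SD, n = 3), and small heat shock proteins went from 7.07 to 4.16 ± 0.21% between the heat times.

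Folding genes of the endoplasmic reticulum rose as well: 9 of 9 tested were higher (all genes, 19.3%), 7 of them in all 4 scalings (7.23%), with a median of 3.48. BZIP60 (LOC_Os07g44950), a membrane-tethered factor of the unfolded protein response, had 12.4, 9.26 and 9.4 CPM in the wet control and 483, 405 and 416 CPM after 30 min (5.39 ± 0.18, adjusted p = 1.1e-10). BIP1 (LOC_Os02g02410), the HSP70 of the endoplasmic reticulum, had 184, 124 and 111 CPM in the wet control and 5476, 3392 and 3338 CPM after 30 min (4.86 ± 0.37, adjusted p = 2.8e-07). The disulfide isomerase PDIL2-3 had 37.7, 30.3 and 23.7 CPM in the wet control and 1153, 834 and 779 CPM after 30 min (4.92 ± 0.24, adjusted p = 3.7e-09). Heat replicate 1 was the highest for BIP1 and PDIL2-3, and still every heat library exceeded every wet one. IRE1, the sensor that splices bZIP messages, went from 31.8, 32 and 22.8 to 164, 164 and 164 CPM (2.51 ± 0.16, adjusted p = 3.7e-08). Its target BZIP50 went from 12.1, 10.7 and 7.42 to 110.4, 86 and 101 (3.30 ± 0.23, adjusted p = 1.3e-07). BZIP39, also membrane-tethered, reached 221, 245 and 248 CPM from 25.6, 25.7 and 13.8 (3.46 ± 0.29, adjusted p = 6.9e-07). The lectin chaperone calreticulin, CRT1, reached 1772, 1489 and 1419 CPM from 174, 113 and 132 (3.48 ± 0.21, adjusted p = 2.4e-08). PDIL1-1 had 121, 72.1 and 70.2 CPM in the wet control and 378, 207 and 252 CPM after 30 min (1.67 ± 0.30, adjusted p = 0.00079), and 0.79 with total counts (adjusted p = 0.056). BIP4 had 0.0249, 0 and 0.0269 CPM in the wet control and 1.64, 0.124 and 0.186 CPM after 30 min (5.07 ± 1.70, adjusted p = 0.043). It was at or near 0 counts in the wet control. Its call was lost with total counts (adjusted p = 0.053), without heat replicate 1 (2.98, adjusted p = 0.19) and without wet control replicates 1, 2 or 3 (0.1, 0.11 and 0.1). At 60 min BIP4 stood at 15.3, 0.396 and 6.9 CPM, and 6 of the 9 genes were lower than at 30 min (13.9% of all genes). In all 4 scalings 2 were lower (3.32% of all genes): BZIP60 (-2.39 ± 0.15, adjusted p = 3.5e-07) and IRE1 (-1.13 ± 0.15, adjusted p = 0.00017).

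Among the 8 genes with the largest rises, 5 carry no name that could be matched and are given by identifier alone. LOC_Os07g47840.MSUv7.0 had 0, 0 and 0.175 CPM in the wet control and 1905, 2127 and 1611 CPM after 30 min (14.95 ± 0.96, adjusted p = 3.5e-07), from 13 counts over the 3 wet libraries to 267615. LOC_Os04g01740.MSUv7.0 had 0.149, 0.083 and 4.19 CPM in the wet control and 19740, 20190 and 21130 CPM after 30 min (13.75 ± 1.55, adjusted p = 1.4e-05), which made it 1 of the 4 genes with the largest gain in CPM. LOC_Os02g34270.MSUv7.0 had 0, 0 and 0.189 CPM in the wet control and 626, 711 and 583 CPM after 30 min (13.29 ± 0.96, adjusted p = 1.1e-06). LOC_Os11g32890.MSUv7.0 had 0, 0.0554 and 0.0269 CPM in the wet control and 322, 329 and 259 CPM after 30 min (13.38 ± 0.84, adjusted p = 4.9e-08). LOC_Os01g22380.MSUv7.0 had no count in any wet control library and 20.1, 16.2 and 12.6 CPM after 30 min, at least 1250-fold higher when 3 counts over the group are taken as the floor (adjusted p = 8.3e-07). Each had at most 4.19 CPM in any wet control library. Without wet control replicate 3 the log2 fold change was 19.86 for LOC_Os07g47840.MSUv7.0, 17.37 for LOC_Os04g01740.MSUv7.0 and 18.31 for LOC_Os02g34270.MSUv7.0, so their sizes depend on that library. Without wet control replicate 1 or 2 these 3 and LOC_Os11g32890.MSUv7.0 lay between 12.65 and 14.34. The largest gain in CPM of all was that of LOC_Os01g62290.MSUv7.0, from 39.3, 32.4 and 46.2 to 21750, 22910 and 22770 CPM (9.16 ± 0.31, adjusted p = 1.2e-10), with 4779, 4581 and 4543 CPM after 60 min. Besides the named genes, 58 listed loci without a matched name were tested, of which 24 were higher and 5 lower (all genes, 19.3% and 19.6%). These 58 come from many lists. LOC_Os01g62290.MSUv7.0 and LOC_Os04g01740.MSUv7.0 are among them, entered in the HSP70 and HSP90 lists, and so also count in the share of the 38 listed chaperone loci.

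**Figure D4:**
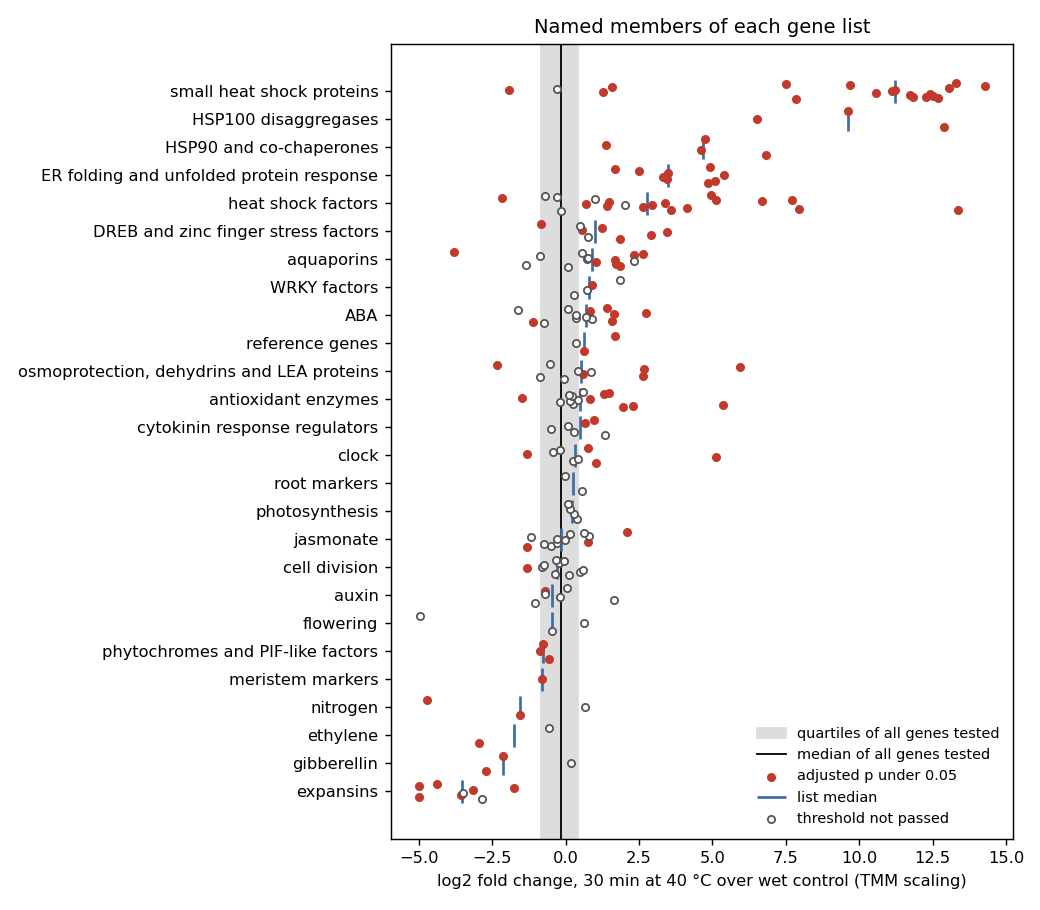
Log2 fold change of 30 min at 40 °C over the wet control (x, TMM scaling) for each named and tested member of the gene lists (y, ordered by list median); red points have an adjusted p under 0.05, and the grey band and black line are the quartiles (-0.85 to 0.44) and median (-0.14) of all genes tested. Most chaperone, heat shock factor and endoplasmic reticulum genes lie to the right, with HSP18.8 (-1.94) and HSFC1A (-2.16) to the left. All 8 expansins, 2 of 3 gibberellin genes and 2 of 3 nitrogen genes lie to the left of the band.

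Enzymes that remove hydrogen peroxide and superoxide changed gene by gene: of 14 tested 6 were higher and 1 lower (all genes, 19.3% and 19.6%), and 4 and 1 in all 4 scalings (7.23% and 19.5%). With total counts alone 4 were higher and 6 lower (7.23% and 61%). APX3, a peroxisomal ascorbate peroxidase, had 3.32, 3.14 and 12.2 CPM in the wet control and 249, 306 and 216 CPM after 30 min (5.37 ± 0.79, adjusted p = 0.00015; 6.30 without wet control replicate 3). APX2, a cytosolic form that was abundant throughout, went from 414, 393 and 394 to 1840, 1994 and 2058 CPM (2.29 ± 0.14, adjusted p = 2.5e-08). APX1, also cytosolic, had 74.8, 31.6 and 14.7 CPM in the wet control and 202, 126 and 139 CPM after 30 min (1.94 ± 0.44, adjusted p = 0.0039), with 2.73 without wet control replicate 1 and 1.04 with total counts (adjusted p = 0.069). The copper-zinc superoxide dismutase SODCC2 had 52.2, 40.9 and 43.6 CPM in the wet control and 114, 146 and 122 CPM after 30 min (1.48 ± 0.18, adjusted p = 3e-05). Catalase CATA (LOC_Os02g02400), which breaks down hydrogen peroxide, went the other way, from 835, 648 and 1431 to 487, 296 and 262 CPM (-1.48 ± 0.41, adjusted p = 0.012), 1 of the 4 largest losses in CPM, and on to 71.5, 69 and 62.7 at 60 min (-2.36 ± 0.42, adjusted p = 0.0016).

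Of 8 tested DREB and NAC genes, transcription factors of cold and drought responses, 5 were higher and 1 lower (all genes, 19.3% and 19.6%), and 3 and 1 in all 4 scalings (7.23% and 19.5%). DREB1E had 0.274, 0.332 and 0.323 CPM in the wet control and 3.74, 3.32 and 3.21 CPM after 30 min (3.46 ± 0.72, adjusted p = 0.002). DREB1A had 0.858, 1.34 and 1.05 CPM in the wet control and 3.52, 4.11 and 4.05 CPM after 30 min (1.84 ± 0.29, adjusted p = 0.00022). DREB1C, with 0.0497, 0.138 and 0.0269 CPM in the wet control and 0.68, 0.433 and 0.512 CPM after 30 min (2.89 ± 0.84, adjusted p = 0.016), was near the limit of detection, and its call was lost without wet control replicate 1 or 3 (adjusted p = 0.062 and 0.059), while without replicate 2 the value was 3.67. DREB2B (LOC_Os05g27930), of the class that acts in heat and drought, had 31.1, 37.5 and 22.5 CPM in the wet control and 69.8, 69.9 and 77.3 CPM after 30 min (1.25 ± 0.20, adjusted p = 0.00023; with total counts 0.39, adjusted p = 0.063). DREB2A changed by 0.56 ± 0.19, adjusted p = 0.034 and reversed sign with total counts (-0.33), and its call was lost without any 1 of the 6 libraries (adjusted p = 0.05 to 0.2). NAC6, the lower one, had 136, 144 and 82.1 CPM in the wet control and 41.1, 67.5 and 94.4 CPM after 30 min, with overlapping groups (-0.83 ± 0.29, adjusted p = 0.037), and its call was lost without heat replicates 1 or 2 or wet control replicates 1 or 2 (adjusted p = 0.064 to 0.11). Of 4 WRKY factors, which act in defence, only WRKY71 passed the threshold (0.89 ± 0.31, adjusted p = 0.034); it stood at -0.01 with total counts, and the call was lost without heat replicates 2 or 3 or wet control replicates 2 or 3 (adjusted p = 0.061 to 0.16).

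Genes of abscisic acid signalling, the hormone of drought, showed modest changes: 5 of 13 tested were higher and 1 lower with TMM (all genes, 19.3% and 19.6%), but 2 higher and 4 lower with total counts (7.23% and 61%). PP2C49 rose most, with 2.66, 2.23 and 2.37 CPM in the wet control and 19, 16.4 and 13.5 CPM after 30 min (2.75 ± 0.49, adjusted p = 0.00064), and was back at 3.19, 3.25 and 4.19 CPM by 60 min; it encodes a clade A phosphatase, which restrains the signal. Phosphatase PP2C30 had 1.72, 1.44 and 0.538 CPM in the wet control and 4.3, 4.08 and 3.28 CPM after 30 min (1.66 ± 0.38, adjusted p = 0.0039), and 0.78 with total counts (adjusted p = 0.1). PP2C68 had 1.94, 1.34 and 0.66 CPM in the wet control and 2.86, 4.37 and 3.28 CPM after 30 min (1.41 ± 0.41, adjusted p = 0.016), and lost its call with total counts (adjusted p = 0.3) and without heat replicate 2 or wet control replicates 2 or 3 (0.063, 0.051 and 0.051). ABA8OX3, which breaks the hormone down, rose from 18.3, 22.5 and 11.8 to 42.1, 57 and 57 CPM (1.57 ± 0.32, adjusted p = 0.0019). ABA8OX2, of the same family and named after its values were seen, fell from 7.88, 12.5 and 11.8 to 3.72, 6 and 5.19 (-1.11 ± 0.24, adjusted p = 0.003). NCED3, of hormone synthesis, had 0.274, 0.816 and 0.848 CPM in the wet control and 1.04, 1.36 and 1.19 CPM after 30 min (0.89 ± 0.45, adjusted p = 0.14).

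Dehydrins, which protect drying cells, split by gene and by time: of the 10 tested genes for dehydrins, LEA proteins and osmoprotection 4 were higher and 1 lower (all genes, 19.3% and 19.6%), 3 and 1 in all 4 scalings (7.23% and 19.5%). RAB16D had 0.124, 0.111 and 0.0539 CPM in the wet control and 4.44, 7.24 and 6.56 CPM after 30 min (5.95 ± 0.67, adjusted p = 1.4e-05). RAB16C had 0.249, 0.111 and 0.0808 CPM in the wet control and 0.64, 1.38 and 0.838 CPM after 30 min (2.68 ± 0.58, adjusted p = 0.0026; 3.28 without wet control replicate 1). LIP9 had 15.3, 21.7 and 16.4 CPM in the wet control and 106, 115 and 111 CPM after 30 min (2.64 ± 0.24, adjusted p = 2.2e-06). P5CS, of proline synthesis, changed by 0.58 ± 0.14, adjusted p = 0.0064, but stood at -0.28 with total counts. TPP1, a trehalose phosphate phosphatase, fell from 0.97, 1.02 and 0.66 to 0.3, 0.103 and 0.116 CPM (-2.33 ± 0.51, adjusted p = 0.0031; -3.02 without heat replicate 1) and had 1.79, 0.734 and 0.923 CPM at 60 min. RAB16A and LEA3, a dehydrin and an LEA protein, showed no call at 30 min and were higher at 60 than at 30 min: RAB16A went from 0.36, 0.536 and 0.465 to 8.29, 2.81 and 12.2 CPM (4.09 ± 1.26, adjusted p = 0.033). The call was lost, at up to 0.1, without any 30 min library and without 60 min replicates 1 or 3. LEA3 went from 0.4, 0.495 and 0.977 to 22.6, 11.8 and 50.7 CPM (5.51 ± 1.21, adjusted p = 0.0061). RAB16A to RAB16D lie close together by locus number, so their reads and names may be mixed.

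Water channel genes mostly rose or passed no threshold: of 16 named aquaporins 14 were tested, 6 were higher and 1 lower (all genes, 19.3% and 19.6%), and 4 and 1 in all 4 scalings (7.23% and 19.5%). Total counts alone gave 4 and 4, beside 7.23% higher and 61% lower over all genes. TIP1;2, which like TIP1;1 sits in the tonoplast, went from 244, 298 and 227 to 1206, 1803 and 1727 CPM (2.62 ± 0.21, adjusted p = 5.3e-07). TIP1;1 went from 388, 595 and 873 to 2549, 3439 and 3410 CPM (2.34 ± 0.31, adjusted p = 6.4e-05). PIP1;2, of the plasma membrane, had 378, 492 and 520.1 CPM in the wet control and 1592, 1828 and 1628 CPM after 30 min (1.86 ± 0.22, adjusted p = 2.1e-05). TIP4;1 fell from 70.7, 41.8 and 219.8 to 12.3, 6.89 and 4.47 CPM (-3.81 ± 0.89, adjusted p = 0.0046), and by 2.85 on the log2 scale without wet control replicate 3, its highest library. Photosynthesis genes passed no threshold at 30 min: the 4 tested had a median of 0.22, which became -0.64 with total counts, where all 4 were lower. CAB1R, a light-harvesting protein, had 9972, 13220 and 10990 CPM in the wet control and 13000, 16020 and 15920 CPM after 30 min (0.40 ± 0.17, adjusted p = 0.076), and was lower with total counts (-0.48, adjusted p = 0.0021).

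Genes of cell expansion fell. Of 8 expansins, proteins that loosen cell walls, 6 were lower and none higher, in all 4 scalings (19.5% of all genes were lower there), with a median of -3.52. EXPA2 (LOC_Os01g60770) had 16.8, 14.7 and 52.2 CPM in the wet control and 1.42, 0.66 and 0.558 CPM after 30 min (-4.98 ± 0.99, adjusted p = 0.0016; -4.17 without wet control replicate 3). EXPA4 had 10.6, 20.2 and 25.3 CPM in the wet control and 1, 1.63 and 2.19 CPM after 30 min (-3.54 ± 0.66, adjusted p = 0.00091). EXPB2 had 11.2, 15.5 and 4.62 CPM in the wet control and 0.96, 1.77 and 0.814 CPM after 30 min (-3.14 ± 0.66, adjusted p = 0.0023). In these 3 genes, as in EXPB4 and EXPB6 below, every heat library was below every wet one. EXPB4 had 5.94, 6.35 and 105 CPM in the wet control and 1.42, 1.11 and 1.19 CPM after 30 min (-4.98 ± 1.27, adjusted p = 0.0077). EXPB6 had 14, 5.37 and 74.6 CPM in the wet control and 2.96, 0.289 and 1.26 CPM after 30 min (-4.38 ± 1.16, adjusted p = 0.0095), with wet control replicate 3 far above replicates 1 and 2. Without that library their values were -2.32 (adjusted p = 0.057) and -2.70 (0.052), and EXPB4 stood at -5.57 without wet control replicate 2 and EXPB6 at -5.38 without heat replicate 1. EXPB3 (-1.75 ± 0.63, adjusted p = 0.042) lost its call without wet control replicate 3 (-0.96, adjusted p = 0.23) and without heat replicates 1, 2 or 3 (0.085, 0.09 and 0.099), so the number of expansins that fell was 3 to 7 with a library left out. EXPA5 (-3.50 ± 1.41, adjusted p = 0.067) and EXPA1 (-2.84 ± 1.09, adjusted p = 0.056) did not pass the threshold. The 4 EXPB genes are neighbours by locus number. At 60 min, EXPA2 and EXPA4 were higher than at 30 min, with 26.5, 3.02 and 10.3 CPM (3.90 ± 0.95, adjusted p = 0.011) and 15.6, 8.14 and 6.01 CPM (2.63 ± 0.63, adjusted p = 0.01).

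Of 3 gibberellin genes 2 were lower, as were 2 of 3 nitrogen genes, in all 4 scalings (19.5% of all genes were lower there). SLR1 (LOC_Os03g49990), the DELLA protein that holds back gibberellin responses, had 67.7, 84.2 and 70.5 CPM in the wet control and 15.3, 17 and 18.4 CPM after 30 min (-2.13 ± 0.13, adjusted p = 2.7e-08). At 60 min SLR1 stood at 65.7, 59 and 59.8 CPM (1.86 ± 0.13, adjusted p = 6e-07). GA20OX2, the semidwarf gene of gibberellin synthesis, had 8.25, 15.2 and 23.8 CPM in the wet control and 1.5, 3.57 and 2.16 CPM after 30 min (-2.71 ± 0.48, adjusted p = 0.0007). Its level was 10.1, 6.9 and 8.03 CPM at 60 min (1.79 ± 0.47, adjusted p = 0.016; 0.064 and 0.057 without 30 min replicates 1 and 3). A repressor and a synthesis enzyme of 1 hormone were thus both low at 30 min, and the receptor GID1, with 40.8, 48.5 and 54.2 CPM in the wet control and 55, 54.2 and 55.6 CPM after 30 min, passed no threshold (0.20 ± 0.12, adjusted p = 0.22; -0.67 with total counts, adjusted p = 0.00087). NIA1 (LOC_Os08g36480), a nitrate reductase, had 116, 169 and 46.4 CPM in the wet control and 2.4, 3.69 and 6.61 CPM after 30 min (-4.71 ± 0.67, adjusted p = 0.00011). By 60 min NIA1 had 30.6, 25.2 and 25.7 CPM (2.68 ± 0.61, adjusted p = 0.0077). Cytosolic glutamine synthetase GS1;1 fell from 343, 325 and 422 to 129.5, 117 and 122 CPM (-1.57 ± 0.21, adjusted p = 6.4e-05). The chloroplast form GS2 had 2130, 3723 and 1920 CPM in the wet control and 2886, 4920 and 4456 CPM after 30 min, with overlapping groups (0.66 ± 0.26, adjusted p = 0.058). ACO1, of ethylene synthesis, had 11.1, 42.8 and 23.8 CPM in the wet control and 1.82, 3.49 and 4.77 CPM after 30 min (-2.95 ± 0.74, adjusted p = 0.0069). The calls at 30 min for SLR1, GA20OX2, NIA1, GS1;1 and ACO1 held under every alternative tried.

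**Figure D5:**
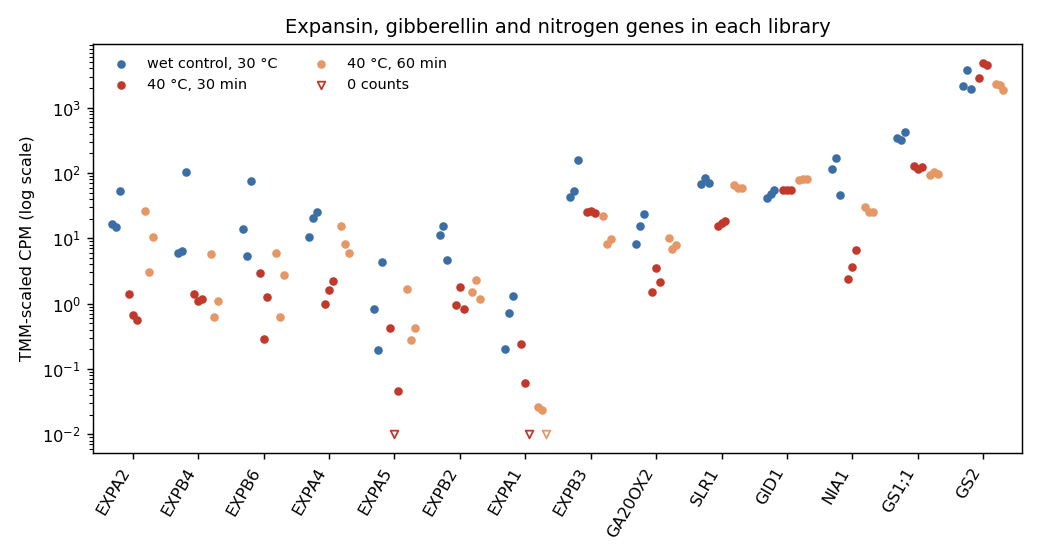
Level of 8 expansin, 3 gibberellin and 3 nitrogen genes (y, TMM-scaled CPM, log scale; open triangles, 0 counts) in each library of the wet control (blue), 30 min at 40 °C (red) and 60 min (orange). SLR1 lies at 15.3 to 18.4 CPM after 30 min, below 67.7 to 84.2 in the wet control, and at 59 to 65.7 CPM after 60 min; EXPB4 and EXPB6 are highest in wet control replicate 3.

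Of 8 clock genes tested 3 were higher and 1 lower with TMM (all genes, 19.3% and 19.6%). In all 4 scalings 1 was higher and 1 lower, near the 7.23% and 19.5% of all genes there. PCL1 (LOC_Os01g74020), the rice relative of LUX in the evening complex, had 1.23, 0.346 and 0.404 CPM in the wet control and 20, 22.2 and 27.9 CPM after 30 min (5.14 ± 0.57, adjusted p = 1.2e-05; 5.94 without wet control replicate 1). PRR1, the relative of TOC1, had 10.3, 9.42 and 8.05 CPM in the wet control and 2.96, 4.5 and 3.79 CPM after 30 min (-1.30 ± 0.19, adjusted p = 0.00016) and was at 9.87, 9.4 and 8.59 CPM by 60 min. ELF3, another evening complex gene, changed by 1.05 ± 0.33, adjusted p = 0.022; it passed no threshold with total counts (0.19, adjusted p = 0.57) or without heat replicates 2 or 3 or wet control replicates 1 or 3 (0.057 to 0.081). PRR95 changed by 0.76 ± 0.21, adjusted p = 0.011, reversed sign with total counts (-0.10) and lost its call without heat replicate 3 (0.052) or wet control replicate 3 (0.051). LHY, GI, PRR73 and PRR37 passed no threshold with TMM. The 3 phytochromes, photoreceptors that also sense warmth in Arabidopsis, were lower in all 4 scalings: PHYB had 61, 88.8 and 49.8 CPM in the wet control and 34.5, 34.8 and 40.1 CPM after 30 min (-0.87 ± 0.25, adjusted p = 0.014). PHYC had 50.5, 56.4 and 68.8 CPM in the wet control and 39.1, 29.6 and 35.5 CPM after 30 min (-0.75 ± 0.17, adjusted p = 0.0039). PHYA (-0.57 ± 0.19, adjusted p = 0.034) lost its call without heat replicates 2 or 3 or wet control replicates 1 or 2 (0.056 to 0.11).

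Other hormone and growth lists held few calls on the TMM scale, where 19.3% of all genes were higher and 19.6% lower. No list here was tested against these shares. In the jasmonate list 2 of 12 were higher and 1 lower: AOC, an enzyme of jasmonate synthesis, fell from 70.7, 82.9 and 86.1 to 32.7, 32.5 and 32 CPM (-1.30 ± 0.28, adjusted p = 0.0029). The repressor gene TIFY11E (2.09 ± 0.54, adjusted p = 0.0084) missed the threshold without heat replicate 3 (0.052) and with total counts (0.07). TIFY10A (0.75 ± 0.21, adjusted p = 0.011) stood at -0.13 with total counts and was lost without heat or wet control replicate 3 (0.064 and 0.051). Of 6 cytokinin response regulators RR9 (0.95 ± 0.22, adjusted p = 0.0037) and RR6 (0.67 ± 0.17, adjusted p = 0.0077) were higher, at 0.09 and -0.21 with total counts. Of 6 auxin genes IAA24, a repressor of auxin signalling, was lower (-0.71 ± 0.21, adjusted p = 0.018; adjusted p = 0.072 without wet control replicate 3). Of 10 cell division genes tested MCM2, of the replicative helicase, was lower (-1.33 ± 0.27, adjusted p = 0.0018). LOG was lower as well (-0.79 ± 0.23, adjusted p = 0.018; 0.058 without heat replicate 1). Genes often used as references moved too: GAPC2, of glycolysis, went from 140.1, 137 and 174 to 484, 508 and 455 CPM (1.68 ± 0.21, adjusted p = 3.4e-05) in all 4 scalings. ACT1, an actin, changed by 0.62 ± 0.17, adjusted p = 0.013 but by -0.26 with total counts, with its call lost without heat replicate 1 (0.062) or wet control replicate 2 (0.11). ACT2 passed no threshold (0.35 ± 0.35, adjusted p = 0.45).

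The largest falls were smaller than the largest rises and often came from genes that varied in the wet control. Of the 8 genes that fell furthest, EXPA2 and EXPB4 have names and 6 are given by identifier. LOC_Os04g08828.MSUv7.0 had 11, 8.75 and 4.71 CPM in the wet control and 0.12, 0.351 and 0.14 CPM after 30 min (-5.30 ± 0.57, adjusted p = 9.8e-06; -5.98 without heat replicate 2). LOC_Os09g04384.MSUv7.0 had 18.7, 40.4 and 42 CPM in the wet control and 0.74, 1.44 and 0.605 CPM after 30 min (-5.17 ± 0.47, adjusted p = 1.8e-06). LOC_Os04g11970.MSUv7.0 had 7.93, 8.29 and 1.72 CPM in the wet control and 0.26, 0.227 and 0.093 CPM after 30 min (-4.92 ± 0.67, adjusted p = 8e-05). In these 3 the wet control libraries lay within a moderate range and well above the heat libraries. LOC_Os01g44970.MSUv7.0 had 1.83, 0.747 and 19.6 CPM in the wet control and 0.42, 0.103 and 0.0465 CPM after 30 min (-5.25 ± 1.31, adjusted p = 0.0069), with -2.75 without wet control replicate 3, -5.86 without wet control replicate 2 and -6.61 without heat replicate 1. LOC_Os12g27254.MSUv7.0 had 31.5, 9.73 and 1.4 CPM in the wet control and 0.44, 0.165 and 0.698 CPM after 30 min (-5.04 ± 1.29, adjusted p = 0.008), with -3.70 without wet control replicate 1. LOC_Os03g01800.MSUv7.0 had 20.7, 3.22 and 66.9 CPM in the wet control and 1.24, 0.413 and 0.372 CPM after 30 min (-5.47 ± 1.81, adjusted p = 0.029), a call lost without wet control replicate 3 (-4.15, adjusted p = 0.094) or heat replicates 1, 2 or 3 (0.053, 0.095 and 0.094). The value was -6.29 without heat replicate 1 and -6.09 without wet control replicate 2. In these last cases 1 wet control library stood far above the others. The largest loss in CPM was that of LOC_Os12g08760.MSUv7.0, with 1560, 2519 and 1574 CPM in the wet control and 698, 896 and 855 CPM after 30 min (-1.21 ± 0.22, adjusted p = 0.00071). Next was LOC_Os03g53800.MSUv7.0, with 755, 568 and 1633 CPM in the wet control and 442, 177 and 222 CPM after 30 min (-1.81 ± 0.61, adjusted p = 0.031). This second gene lost its call without wet control replicate 3 (0.13) or heat replicates 2 or 3 (0.1 and 0.094). LOC_Os05g47540.MSUv7.0 went from 724, 1283 and 668 to 209, 244 and 218 CPM (-1.99 ± 0.28, adjusted p = 0.0001).

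Whether the shoots differed between 30 and 60 min was tested directly, in a comparison that shares the 30 min libraries with the one above. At 60 min 2121 genes were higher (10.4%) and 2850 lower (13.9%) than at 30 min. With total counts 10067 were higher (49.2%) and 679 lower (3.32%), a median shift of 0.76, so the size of every fall between the heat times, and many calls, depend on the scaling. Of 4 light-harvesting and Rubisco genes, 3 were lower with TMM, and with total counts none was lower and 1 was higher. Of 14 aquaporins, 6 were lower with TMM and none with total counts. The falls of HSP100 genes (3 of 3) and of most heat shock factors (11 of 20) stood in all 4 scalings, as did the rises of gibberellin genes (3 of 3) and of EXPA2 and EXPA4; over all genes 3.32% fell and 10.1% rose in all 4. Against the wet control, 3310 genes were higher (16.2%) and 3235 lower (15.8%) at 60 min.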

How the data were processed

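Whole-shoot RNA was made into stranded mRNA libraries with a NEBNext kit, per the labels' protocols. The deposited values are whole-number read counts per gene that the authors did not normalize. Trimmomatic, HISAT2 and featureCounts are named in the submitters' processing notes, without versions. Which build and strand setting were used is not given in the sources used here, and reads of overlapping, antisense and closely related genes may then be mixed.

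The table held 24073 genes, 1205 of them with no count. In R 4.3.3, edgeR 4.0.16 (filterByExpr, minimum count 10 and minimum total 15, TMM factors, robust quasi-likelihood fit) was run on all 15 libraries with 1 mean per group, so that the groups share an estimate of the spread. Adjusted p-values are Benjamini-Hochberg over the 20462 genes tested, with 0.05 as the threshold, and the SE is the log2 fold change divided by the square root of F. Library sizes were the totals of all genes in the table. Before TMM scaling, a floor of 3 counts was 0.0385 to 0.0496 CPM in the 6 libraries. On the TMM scale it is higher than that in the heat libraries and lower in the wet control. This floor reflects counting error alone, because the reads carry no molecular identifiers. The code was run on simulated counts with rises and falls in equal number. These held no shift in composition like that of the heat libraries, so they cannot speak to the choice of scaling. Replicates differed by 28.8 to 466.5 chi-square units per gene, so none of the 6 libraries was taken as a copy of another.

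The members, gene lists and tests were chosen with earlier results of these data known. Of 277 listed loci 264 were in the table, and 202 had a name in the RefSeq assembly ASM3414082v1 on the same chromosome within 1000 kb of the place expected from the locus number; the others have no name here. For 10 loci and 4 names the entry was set after that reference was seen. This check cannot separate tandem neighbours. Named were the 8 largest rises and 8 largest falls past the threshold (at least 5 CPM in the higher group, no overlap of libraries), the 4 largest changes in CPM each way, and up to 4 members per list. Lists of up to 10 could be given whole, but several were given only in part. Other members named in such lists, among them DREB2A, NAC6, P5CS, RAB16A and LEA3, were chosen after their values were seen, as were those in longer lists. The flowering list, with 3 genes tested and no call at 30 min, is not described. Promoter sequences were not analysed here. Alternatives were RLE, upper quartile and total count scaling, DESeq2 1.42.0, no filter, fits of the compared groups only, a replicate block, a 2-fold limit and each library left out. Deviations of same-numbered libraries correlated at -0.119, 0.503 and -0.584 between 30 min and the wet control, so these were not taken as pairs. Between 60 and 30 min the values were 0.473, 0.303 and 0.29, each above 0.1. Of the differently numbered pairs, 60 min replicate 2 and 30 min replicate 3 reached 0.353, and the others lay at -0.501 to -0.104. The values do not settle whether same-numbered libraries belong together, and the labels do not say. The values printed for 60 against 30 min come from the fit with no block, and the blocked fits are alternatives.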

Additional observations from a re-analysis of the deposited data

Results flagged for a closer look

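The heat effect differed between the 2 heat times for 4971 genes (24.3% of 20462), as tested by 60 against 30 min in the same model (edgeR). It was flagged because the change against the wet control differs between these groups. Of these genes 2121 were higher and 2850 lower at 60 min with TMM, and the split was 10067 and 679 with total counts only.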

How the results depend on the processing

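Calls at 30 min depended most on scaling. With total counts only, 13955 genes were called, 1480 higher and 12475 lower, and between 60 and 30 min 10746, with 10067 higher and 679 lower. Upper quartile factors gave 3241 genes higher at 60 than at 30 min. Among genes chosen by the naming rule, the sign reversed with total counts at 30 min for PRR95 (-0.10), RR6 (-0.21), TIFY10A (-0.13), CAB1R (-0.48), ACT1 (-0.26) and WRKY71 (-0.01), and between 60 and 30 min for APX2 (0.23), TIP1;2 (0.07), PRR95 (0.50), DREB2B (0.46), CAB1R (0.30) and PHYA (0.71). Of the other list members 21 reversed at 30 min, among them DREB2A (-0.33), P5CS (-0.28), HSFA5 (-0.18) and GID1 (-0.67), and 14 between the heat times. These moves follow from the scaling factors by construction. A further 2-fold limit left 4762 genes at 30 min, 2157 higher and 2605 lower, and 2356 between the heat times, 1068 and 1288. DESeq2 gave 4231 higher and 4674 lower at 30 min. The compared groups alone gave 3449 higher at 60 than at 30 min, and with the replicate block added, a fit chosen after seeing the data, 7571 calls, 3740 of them higher; the cause was not tested. In the fit of all libraries a replicate block gave 3965 higher and 3738 lower at 30 min, and 1998 and 2782 between the heat times, and it changed no call of the 60 against 30 min values printed. Leaving out 1 library gave 6305 to 7731 calls at 30 min, and 2973 to 3777 calls between the heat times, with 1276 to 1727 higher and 1643 to 2378 lower. The gap in the chaperone share, 11.571 percentage points with the named genes, was 16.963 with all listed loci. The gap for the 20 highest genes, 1.218 points, was 6.089 for the 50 highest and 0.284 without wet control replicate 3, 0.327 without wet control replicate 1 and 3.043 without wet control replicate 2. For the genes chosen by the naming rule, at 30 min 1031 values under the alternatives kept their direction and side of the threshold, 60 lost the call, 2 gained it and 6 reversed. With 3 libraries a group, low genes such as BIP4 and DREB1C rest on few reads, so the size of their change is poorly set.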
